A study of Homo sapiens with 15 samples.

Results

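WT10 and MUT3 are clones of one breast cancer cell line, each grown out from a single sorted cell, and the levels of their mRNAs were compared at low doxycycline. The comparison asked which genes differ between these sister clones at baseline, and not how genes respond to a dose. It used 6 of the 15 libraries, those of WT10 and of MUT3 at 0, 1 and 2.5 ng/ml doxycycline. The labels give the line as MDA231, a human triple negative breast cancer line, and the methods give the parental cells as 231-BrM2, its brain metastatic derivative. Both clones carry RBM47 on a construct whose promoter responds to doxycycline, an antibiotic. In WT10 cells the transgene is wild type RBM47, and in MUT3 cells it is RBM47-I281fs, a frameshift mutant from a patient. RBM47 is an RNA-binding protein. There was 1 library per clone and dose and 1 clone per transgene, so the 3 libraries of a clone were taken at different doses and are not replicates of a condition, and p-values measure only the spread between these libraries. The clone of origin, the form of the transgene and its level cannot be told apart in this comparison.

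Cell lines are mixed populations. Cells of one line can differ in chromosome content and in which promoters are silenced, both of which are passed on when cells divide, and a clone grown from 1 cell fixes the state of that cell. MDA231 cells are of the mesenchymal, claudin-low type, with little E-cadherin and without hormone receptors, and the BrM2 derivative was selected in mice for growth in the brain.

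The values were deposited as read counts per gene divided by a size factor of each library, and they are called normalized counts below. Between 14955172 and 19094364 reads fell on genes in the 6 libraries, with a median of 17625202.5, and 3 reads in 1 library were worth 2.89 to 3.75 normalized counts. For a gene with no read in a clone, the floor behind a fold change was 3 reads over its 3 libraries together. Values of a gene are listed in the order 0, 1 and 2.5 ng/ml. The mesenchymal identity of the line was seen in both clones, with VIM (vimentin) between 92105 and 101456 normalized counts and CD44 between 17515 and 22488. E-cadherin (CDH1) was at most 1.11 and the epithelial splicing factor ESRP1 at most 6.98 in any library, while the estrogen receptor ESR1 ran from 5.41 to 11.97. The progesterone receptor PGR was at 7.98 to 20.6 in WT10 libraries and at 0 to 7.50 in MUT3 libraries. GATA3 and EPCAM, also taken beforehand as low or absent in such cells, were not absent, at 166 to 213 and 136 to 241 over the 6 libraries. Of 28 markers of blood, endothelial, glial, neuronal, muscle, liver and fibroblast cells, 7 were at 0 in all 6 libraries, among them the fibroblast genes LUM and COL1A2. Not all fibroblast genes were absent, since COL1A1 was at 272 to 302 in WT10 libraries and 198 to 265 in MUT3 libraries. The summed level of the 28 markers was 6138 to 6531 in WT10 libraries and 5826 to 6367 in MUT3 libraries, of which the lysosomal gene CD68 and MBP made up the most. Of the 9 tested, 3 were called higher in each clone, and the log2 differences of the 9 ran from -2.51 to 1.05. The neuronal gene SNAP25 had the largest difference of those called and was higher in MUT3 cells. KDR (325 to 371 against 136 to 145 in WT10 cells) and TTN (257 to 319 against 161 to 184) were also higher in MUT3 cells. PDGFRB was among those higher in WT10 cells.

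RBM47 itself differed between the clones already at low doxycycline. It was at 168, 827 and 2822 normalized counts in WT10 cells and at 73.8, 92.1 and 336 in MUT3 cells. The ranges overlapped, since MUT3 cells at 2.5 ng/ml were above untreated WT10 cells, but at each dose WT10 cells had the higher level. The log2 difference, WT10 minus MUT3, was 2.46 (SE 0.86), with an adjusted p of 0.0214 by limma with Benjamini-Hochberg adjustment over all genes tested. The RBM47 call rested on single libraries, since the adjusted p (limma) was 0.0504 without WT10 cells at 1 ng/ml, and 0.0863 and 0.0552 without MUT3 cells at 0 and 1 ng/ml, and the log2 difference ran from 1.49 without WT10 cells at 2.5 ng/ml to 3.52 without untreated WT10 cells. With WT6 libraries in the fit, or with all 5 doses, the adjusted p for RBM47 was 0.209 and 0.268. RBM47 lies at chr4:40425284-40632892 on the minus strand (GRCh37), and reads from the transgene and from the endogenous gene were counted together. Among its paralogs, the germ cell RNA-binding protein gene DND1 was higher in WT10 cells (log2 difference 0.48), while the test was not passed by HNRNPR and SYNCRIP, which encode abundant nuclear and cytoplasmic RNA-binding proteins.

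The clones differed in many genes, most of them by small amounts. Of 13476 genes with a mean of at least 10 normalized counts over the 6 libraries, 7319 (54.3%) had an adjusted p under 0.05, 3449 (25.6%) higher in WT10 cells and 3870 (28.7%) higher in MUT3 cells. The difference was less than 0.5 on the log2 scale for 62.6% of the genes called, and their median absolute log2 difference was 0.39. A second call, which also asked for at least 1 log2 unit (2-fold), left 787 genes (5.84%), 481 (3.57%) higher in WT10 cells and 306 (2.27%) higher in MUT3 cells. Of the 787 genes, 774 had no overlap between the 3 libraries of one clone and the 3 of the other, which held for 8002 (59.4%) of all genes tested, and 496 differed at least 2-fold at each of the 3 doses. At least 4-fold differences were seen for 130 genes higher in WT10 cells and 85 higher in MUT3 cells, and at least 16-fold differences for 40 and 11. The median log2 difference of all genes tested was -0.01.

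**Figure D1:**
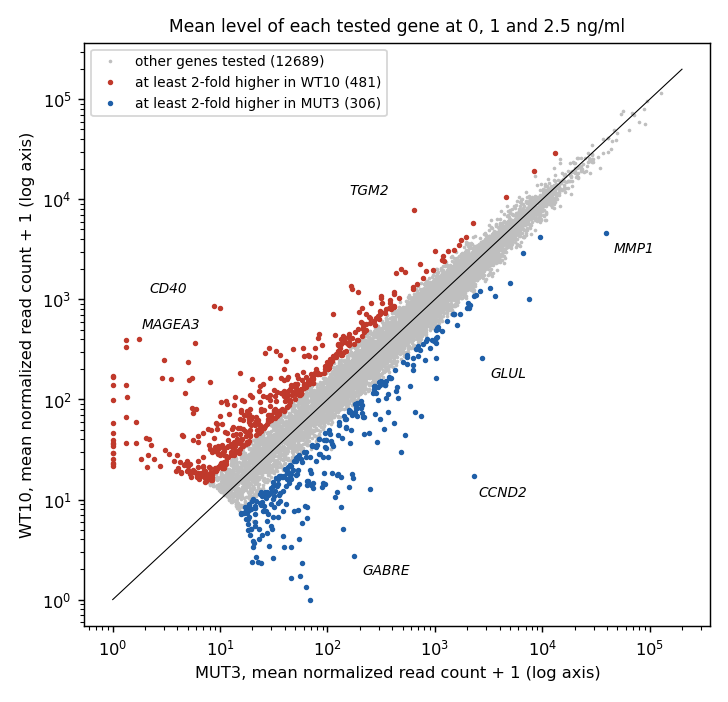
Mean normalized read count of each of the 13476 tested genes in WT10 cells (vertical axis) and MUT3 cells (horizontal axis) at 0, 1 and 2.5 ng/ml doxycycline, on log axes after adding 1. Most genes lie along the diagonal, while a strip along each axis holds genes that were at or near 0 in 1 clone, and the 481 genes at least 2-fold higher in WT10 cells and 306 at least 2-fold higher in MUT3 cells are drawn in color.

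Genes with the largest differences were close to absent from 1 clone. The cancer-testis antigen MAGEA3 was at 385, 414 and 371 normalized counts in WT10 cells and at 0, 0 and 0.99 in MUT3 cells. Cancer-testis antigens are made in germ cells and are silent in most other tissues, in part through methylation of CG pairs in their promoters, and they reappear in many tumors. The log2 difference was 8.28 (SE 0.35), the largest of those higher in WT10 cells, with an adjusted p of 1.61e-12 (limma, Benjamini-Hochberg). For genes near 0 this value depends on the constant added to the counts, and with 0.5 or 5 in place of 1 it was 9.08 or 6.22 for MAGEA3. From 1157 reads in WT10 libraries against 1 read in MUT3 libraries, the ratio was 1059, with a 95% interval of 190 to 41857 from counting error alone. MAGEA3 lies at chrX:151934652-151938240 on the minus strand (GRCh37), and its near-identical copy MAGEA6 was at 3.25, 5.79 and 6.98 in WT10 cells and at 0 in all 3 MUT3 libraries, so the division of reads between the copies is uncertain.

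The cancer-testis antigens SPANXC, MAGEC2 and MAGEA11 were also near 0 in MUT3 cells. SPANXC, a sperm protein gene of a family with several copies, was at 424, 383 and 402 in WT10 cells against 1.25, 0 and 0.99 in MUT3 cells. MAGEC2 was at 80.1, 91.6 and 125 against 0 in all 3 MUT3 libraries, which makes it at least 89.7-fold higher in WT10 cells. MAGEA11, a coregulator of the androgen receptor, was at 32.5, 37.6 and 35.9 against 0, 0 and 1.98. The clones did not overlap in any of these genes. Of 81 cancer-testis antigens in the table only 7 passed the filter on low values, and members that are high in WT10 cells alone passed it through that clone, so a count of those called says nothing about the rest. PAGE5 was higher in MUT3 cells at a log2 difference of -0.57, and MAEL, a germ cell protein that silences transposons, was at 24.9, 20.3 and 34.9 against 35.0, 30.0 and 38.5 and did not pass the test. In WT6 cells, which carry the wild type transgene in another line, CN34-BrM2, MAGEA3 was between 35.1 and 41.2 at the same doses, and MAGEC2 between 0 and 1.71.

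Several genes, among them some of surface proteins and enzymes, had mRNA in WT10 cells alone or nearly so. CD40, the receptor through which T cells activate antigen-presenting cells and a driver of NF-kB signaling, was at 834, 868 and 871 normalized counts in WT10 cells and at 2.50, 11.1 and 9.88 in MUT3 cells. The log2 difference was 6.80 (SE 0.33), with an adjusted p of 1.02e-11 by limma (Benjamini-Hochberg), and the ratio of reads was 106 (95% interval 69.7 to 169). In WT6 cells CD40 was between 712 and 780, so that MUT3 was the clone with little CD40 among the 3. PTPRN2, a phosphatase-like protein of secretory granules, was at 340, 305 and 345 in WT10 cells against 0, 0 and 0.99 in MUT3 cells. BCHE, which encodes butyrylcholinesterase, a secreted enzyme that splits choline esters, was at 161, 168 and 177 against 0 in every MUT3 library. PNPLA4, an enzyme of lipid and retinol ester metabolism, was at 136, 135 and 145 against 0 in every MUT3 library. Against the floor of 3 reads over the 3 MUT3 libraries, BCHE was at least 153-fold and PNPLA4 at least 125-fold higher in WT10 cells.

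ARHGAP30 was at 897, 818 and 747 normalized counts in WT10 cells and at 11.3, 9.99 and 5.93 in MUT3 cells. NLRP2, a member of the family of inflammasome proteins, was at 156, 136 and 125 against 0, 0 and 0.99. C19orf63, now named EMC10, encodes a subunit of the complex that inserts membrane proteins at the endoplasmic reticulum, and it was at 375, 372 and 347 against 3.75, 7.77 and 2.97. The groups did not overlap for any of them, and the log2 differences were 6.39, 6.79 and 6.06. LOC400655, LOC100505817 and LOC283547, which have no name beyond a locus number, completed the 12 largest differences.

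The genes with the largest differences in the other direction were led by a cell cycle gene. CCND2, which encodes cyclin D2, a partner of CDK4 and CDK6 at the entry into the cell cycle, was at 18.4, 12.5 and 18.0 normalized counts in WT10 cells and at 2412, 2217 and 2341 in MUT3 cells. The log2 difference was -7.09 (SE 0.22), with an adjusted p of 1.65e-14 by limma (Benjamini-Hochberg), and MUT3 cells had 143 times the reads (95% interval 108 to 195). CCND2 lies at chr12:4378937-4414519 on the plus strand (GRCh37). In WT6 cells it was between 2.06 and 7.67, so that MUT3 was the clone that stood apart. GABRE, the epsilon subunit of the GABA-A receptor, was at 2.16, 1.93 and 1.00 in WT10 cells against 160, 200 and 165 in MUT3 cells, a ratio of 104 (95% interval 44.2 to 321). The adhesion molecule gene CADM1, a tumor suppressor that promoter methylation silences in many carcinomas, was at 5.41, 5.79 and 1.00 against 154, 132 and 126. TMEM47, a protein of cell junctions, was at 10.8, 9.64 and 14.96 against 223, 263 and 251.

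Enzymes and matrix genes were also among the large differences higher in MUT3 cells. GLUL, the glutamine synthetase, was at 259, 273 and 253 normalized counts in WT10 cells and at 2834, 2641 and 2795 in MUT3 cells, a log2 difference of -3.39 (SE 0.07) with an adjusted p of 4.92e-17 (limma, Benjamini-Hochberg). Glutamine synthetase makes glutamine from glutamate and ammonia. HS6ST2 and GPC4, which modify and carry heparan sulfate at the cell surface, were both higher in MUT3 cells. HS6ST2 was at 29.2, 25.1 and 32.9 in WT10 cells against 503, 464 and 475 in MUT3 cells, and GPC4 was at 7.57, 16.4 and 12.97 against 156, 153 and 162. CYFIP2, a part of the complex that drives actin branching, was at 48.7, 39.5 and 40.9 against 513, 523 and 547. PPP1R14C, an inhibitor of protein phosphatase 1, was at 10.8, 7.72 and 3.99 against 150, 122 and 124. The neuronal genes KIAA2022 (now NEXMIF) and ODZ2 (now TENM2) and the red cell membrane gene GYPC had log2 differences of -3.52, -3.40 and -3.44. No library of one clone reached the range of the other for these genes.

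**Figure D2:**
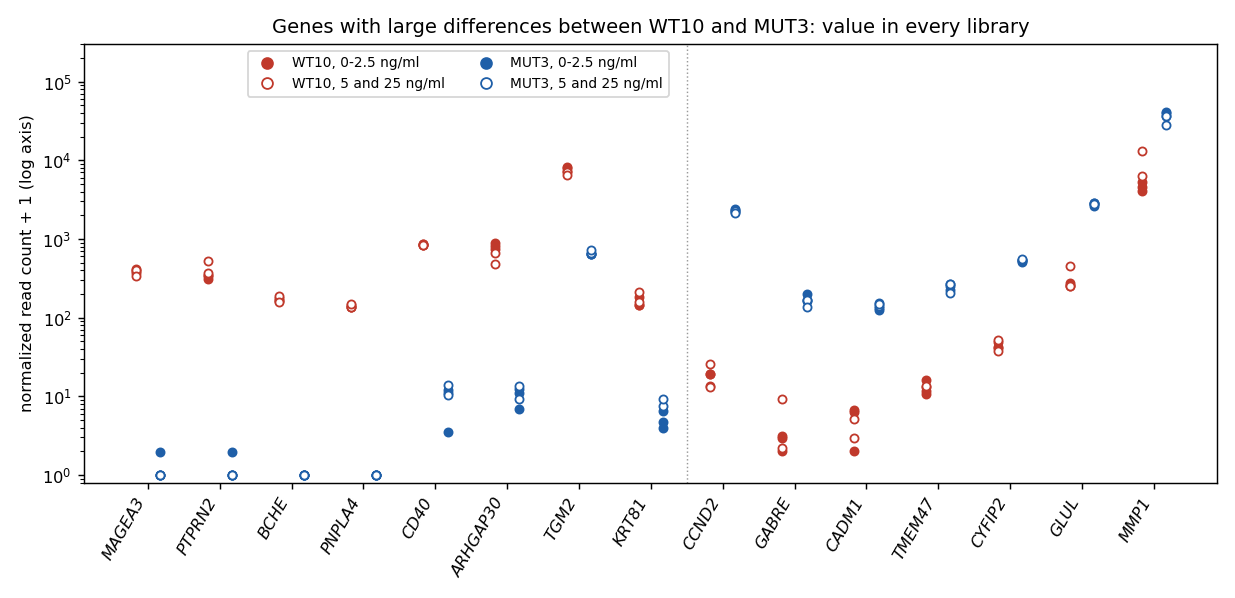
Normalized read count plus 1 (log axis) in every library of WT10 (red) and MUT3 (blue) for 8 genes higher in WT10 cells and 7 genes higher in MUT3 cells, with filled points for 0, 1 and 2.5 ng/ml and open points for 5 and 25 ng/ml. The points of the clones form separate groups for each gene. At 0, 1 and 2.5 ng/ml CD40 was at 834 to 871 against 2.50 to 11.1 and CCND2 at 12.5 to 18.4 against 2217 to 2412.

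At the strictest reading, a gene was counted as on in 1 clone where its mean there was at least 20 normalized counts and no library of the other clone had more than 3 reads. There were 34 such genes on in WT10 cells and 12 on in MUT3 cells. Those on in WT10 cells included FRMPD4, a scaffold protein of neuronal synapses, at 177, 159 and 155 against 2.50, 2.22 and 0.99. Those on in MUT3 cells included DMD, the dystrophin gene, at 1.08, 1.93 and 1.00 in WT10 cells against 48.8, 59.9 and 63.3 in MUT3 cells, and the heart transcription factor gene NKX2-5 at 2.16, 2.89 and 1.99 against 48.8, 43.3 and 41.5. Of the 12 genes on in MUT3 cells, GABRE, DMD, AFF2 and TSPAN7 lie on the X chromosome. Of the 34 on in WT10 cells, SPANXC, MAGEA3, FRMPD4, PNPLA4, MAGEC2, MAGEA11 and TGIF2LX lie there too. The X chromosome held 442 of the 12861 tested genes that could be placed on a chromosome arm. IPW, a noncoding RNA from the imprinted Prader-Willi region of chromosome 15, had no read in WT10 cells and was at 62.5, 65.5 and 75.1 in MUT3 cells, at least 67.4-fold higher. SNRPN of the same region, which is normally read from the paternal copy alone, was at 1.08, 1.93 and 1.99 against 26.3, 15.5 and 19.8.

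The sequence just upstream of 4 genes on the X chromosome with large differences is shown, because the CG pairs there are the sites at which promoter methylation can act. Methylation was not measured in these data. Each line gives the 250 bases before the transcription start from RefSeq (GRCh38.p14), 5′ to 3′ on the strand of the gene, with CG pairs in capitals. The genes MAGEA3 and MAGEC2 were on in WT10 cells, and GABRE and TMEM47 were among the 12 largest differences higher in MUT3 cells.

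MAGEA3, chrX:152698544-152698793, plus strand: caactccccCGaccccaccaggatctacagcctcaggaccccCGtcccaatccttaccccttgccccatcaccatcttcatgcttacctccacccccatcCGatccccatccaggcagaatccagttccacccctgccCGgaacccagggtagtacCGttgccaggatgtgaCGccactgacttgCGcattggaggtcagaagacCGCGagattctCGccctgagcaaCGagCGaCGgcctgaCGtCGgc
MAGEC2, chrX:142205291-142205540, minus strand: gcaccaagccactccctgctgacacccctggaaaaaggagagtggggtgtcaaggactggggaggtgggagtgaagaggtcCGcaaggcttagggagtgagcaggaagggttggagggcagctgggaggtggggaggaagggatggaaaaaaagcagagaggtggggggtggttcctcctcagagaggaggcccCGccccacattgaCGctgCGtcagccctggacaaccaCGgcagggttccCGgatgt
GABRE, chrX:151974677-151974926, minus strand: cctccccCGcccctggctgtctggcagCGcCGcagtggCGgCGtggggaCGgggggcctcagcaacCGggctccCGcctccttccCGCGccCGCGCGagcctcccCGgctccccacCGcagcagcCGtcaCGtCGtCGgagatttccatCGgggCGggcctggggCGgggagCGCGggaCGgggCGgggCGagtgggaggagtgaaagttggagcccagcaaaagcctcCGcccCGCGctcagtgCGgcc
TMEM47, chrX:34657286-34657535, minus strand: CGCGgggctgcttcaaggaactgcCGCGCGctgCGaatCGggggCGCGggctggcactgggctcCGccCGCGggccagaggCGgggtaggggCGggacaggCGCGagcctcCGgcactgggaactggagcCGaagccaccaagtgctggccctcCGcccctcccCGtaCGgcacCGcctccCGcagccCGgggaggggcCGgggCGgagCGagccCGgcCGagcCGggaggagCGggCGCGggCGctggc

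The sequence of MAGEA3 held 15 CG pairs, which 42.9% of the 35116 RefSeq promoters of this length matched or exceeded, and that of MAGEC2 held 6, matched or exceeded by 61.9%. GABRE had 31 CG pairs (10.9% of promoters had at least as many) and TMEM47 had 34 (6.84%). The 4 sequences thus ran from a promoter poor in CG pairs to dense CG islands. Among the genes on in WT10 cells, 26 of 34 had a promoter in the table, with the start richest in CG pairs taken for each gene, and they held 2 to 33 CG pairs with a median of 11.5. Among those on in MUT3 cells 9 of 12 had one, with 0 to 36 and a median of 12. Over the 10337 tested genes with a promoter in the table the median was 23. The sequence of MAGEA3 occurred at 2 places of the GRCh37 X chromosome, 151867022-151867271 on the plus strand and 151938199-151938448 on the minus strand. Only the second lies at the GRCh37 position given above for MAGEA3, so the sequence shown is not particular to that locus. Those of MAGEC2, GABRE and TMEM47 occurred at 1 place each.

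The counts of the gene lists that follow are to be read against the shares of all genes tested, 25.6% higher in WT10 cells and 28.7% higher in MUT3 cells. Several keratins and epithelial genes were higher in WT10 cells. Of 9 basal keratins and myoepithelial genes tested, 6 were called higher in WT10 cells and 1 higher in MUT3 cells (median log2 difference 0.49, against -0.01 over all genes). KRT81, a hair keratin made by basal breast cancer cells, was at 144, 184 and 143 normalized counts in WT10 cells and at 3.75, 5.55 and 2.97 in MUT3 cells, and KRT80 was at 597, 620 and 604 against 235, 284 and 296. KRT86, which had 22.7, 26.0 and 18.9 against 0, 7.77 and 1.98, overlaps KRT81 on the other strand in the annotation. The counting was run at default settings, and the sources do not spell out the one for strand. Of 16 luminal and epithelial genes tested, 9 were higher in WT10 cells and 3 higher in MUT3 cells (median 0.26), which became 6 and 4 (median 0.097) with length and GC trends removed. The simple epithelial keratin KRT7 was at 125, 99.3 and 104 against 15.01, 17.8 and 20.8, and SPINT1, an inhibitor of the epithelial protease ST14, was at 75.7, 66.5 and 71.8 against 18.8, 13.3 and 20.8. The tight junction gene CLDN4 went the other way, at 72.5, 68.5 and 63.8 against 100, 134 and 113. EPCAM, one of the identity markers given above, was at 241, 230 and 229 against 136, 173 and 160.

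Of 23 genes of the mesenchymal basal identity, 13 were higher in WT10 cells and 3 higher in MUT3 cells (median 0.19). TGFBI, a matrix protein made in response to TGF-beta, was at 1149, 1223 and 1191 normalized counts in WT10 cells against 179, 196 and 193 in MUT3 cells, a log2 difference of 2.64 (adjusted p 1.65e-14, limma with Benjamini-Hochberg). ZEB2, a repressor of E-cadherin, was higher in MUT3 cells at 406, 453 and 475 against 221, 226 and 275. Vimentin had a log2 difference of 0.03 and did not pass the test (adjusted p 0.527, limma with Benjamini-Hochberg). TGFBI and vimentin, both high in mesenchymal cells, were thus far apart in how much the clones differed.

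Collagen and matrix genes were more often higher in WT10 cells. Of 44 collagens, laminins and matrix glycoproteins tested, 25 were higher in WT10 cells, 7 higher in MUT3 cells and 12 did not pass, with 11 and 2 at 2-fold (median 0.40). COL6A3 was at 272, 295 and 301 normalized counts in WT10 cells against 31.3, 22.2 and 22.7 in MUT3 cells. COL4A1, a chain of basement membrane collagen, was at 1001, 882 and 892 against 255, 280 and 229, and its neighbor COL4A2, named after its values were seen, was at 3297, 3113 and 2765 against 944, 942 and 1145. COL4A1 and COL4A2 lie in a stretch of chromosome 13 in which most genes were higher in WT10 cells, described further on. COL11A1 was among the 2 that were 2-fold higher in MUT3 cells, at 4.33, 0.96 and 7.98 against 13.8, 25.5 and 21.7, with WT10 values near the worth of 3 reads. Its direction was opposite at 25 ng/ml, at 23.8 against 19.9. The laminin chain LAMC1 did not pass the test, at a log2 difference of 0.02.

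Matrix proteases and their inhibitors were divided between the clones. Of 41 tested, 20 were higher in WT10 cells and 12 higher in MUT3 cells, with 10 and 4 at 2-fold (median 0.19). MMP1, the interstitial collagenase and a known mediator of metastasis to lung, bone and brain, was at 4091, 4618 and 5277 normalized counts in WT10 cells and at 41122, 39330 and 36105 in MUT3 cells. The log2 difference was -3.06 (SE 0.07), with an adjusted p of 5.29e-17 by limma (Benjamini-Hochberg). MMP1 lies at chr11:102660132-102668891 on the minus strand (GRCh37). The cysteine protease inhibitors CST4 and CST1 were higher in WT10 cells. CST4 was at 214, 396 and 358 against 16.3, 35.5 and 30.6, and CST1 at 155, 331 and 233 against 18.8, 54.4 and 47.4, in both clones with the lowest value in untreated cells. TIMP4, an inhibitor of matrix metalloproteinases, was at 22.7, 23.1 and 27.9 against 0 in all MUT3 libraries, at least 22.3-fold higher, and it lies within SYN2 on the other strand.

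Mediators of metastasis that were defined in MDA231 derivatives did not move together. Of 24 genes of brain metastasis, 9 were higher in WT10 cells and 10 higher in MUT3 cells (37.5% and 41.7%, median 0.02), and of 25 genes of lung and bone metastasis 13 and 7 (52.0% and 28.0%, median 0.19). With length and GC trends removed the brain metastasis genes were divided 8 to 12 (median -0.19). Beside MMP1, the gap junction gene GJA1 was higher in MUT3 cells at 895, 915 and 909 normalized counts against 323, 343 and 301 in WT10 cells. ANGPTL4, a secreted protein that loosens endothelial junctions, was higher in WT10 cells at 319, 287 and 308 against 144, 118 and 113. CXCR4, the receptor of the chemokine CXCL12 and a gene of bone metastasis, was higher in MUT3 cells at 468, 476 and 416 against 103, 86.8 and 119. SPP1, which encodes osteopontin, was at 2.16, 1.93 and 4.99 in WT10 cells against 18.8, 31.1 and 16.8 in MUT3 cells. At 2-fold, however, 7 of the lung and bone metastasis genes were higher in WT10 cells and 4 higher in MUT3 cells. The largest difference among them was that of KRT81, higher in WT10 cells (log2 difference 4.98). The adhesion molecule L1CAM did not pass the test at a log2 difference of 0.01, but it was higher in MUT3 cells with length and GC trends removed (-0.21, adjusted p 0.0428 by limma with Benjamini-Hochberg). The transcriptional regulator gene ID1, named in the list of TGF-beta and BMP genes, was at 1982, 1872 and 1686 in WT10 cells and at 443, 461 and 387 in MUT3 cells.

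Cytokines were more often higher in WT10 cells, with 13 of 21 tested higher there and 3 higher in MUT3 cells (median 0.54). CSF2, which encodes the growth factor GM-CSF, was at 66.0, 67.5 and 56.8 normalized counts in WT10 cells against 12.5, 13.3 and 16.8 in MUT3 cells. TNFSF15, a TNF family ligand, was at 23.8, 40.5 and 63.8 against 6.25, 0 and 3.95, and in WT10 cells it reached 92.6 and 346 at 5 and 25 ng/ml. IL18, a cytokine released by inflammasomes, was higher in MUT3 cells at 640, 590 and 625 against 256, 222 and 293. The neutrophil attractant IL8 was at 266, 389 and 655 against 294, 406 and 303 and did not pass the test, except when the untreated WT10 library was left out (log2 difference 0.61). Of 34 receptors of cytokines and chemokines, 13 were higher in WT10 cells, led by CD40, and 8 higher in MUT3 cells, led by CXCR4 (median 0.08). CSF1R, the receptor of the macrophage growth factor, was at 15.1, 28.9 and 17.0 against 7.50, 4.44 and 5.93, and IL20RB at 8.65, 19.3 and 10.97 against 26.3, 38.8 and 32.6. At 25 ng/ml the direction of IL20RB was opposite, at 30.0 in WT10 cells against 22.0 in MUT3 cells.

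Interferon-stimulated genes showed no common direction, with 17 of 45 tested higher in WT10 cells and 13 higher in MUT3 cells (median 0.05). BST2 (tetherin), which holds budding viruses at the cell surface, was at 2358, 2273 and 2113 normalized counts in WT10 cells against 669, 740 and 771 in MUT3 cells. IFITM2, which blocks virus entry, was higher in MUT3 cells at 1008, 1063 and 1115 against 502, 499 and 506. STAT2, the transcription factor of the type I interferon response, had a log2 difference of -0.03 and did not pass the test. Of 31 antigen presentation genes, 14 were higher in WT10 cells and 4 higher in MUT3 cells (median 0.13). HLA-F was at 120, 115 and 95.7 against 45.0, 42.2 and 51.4, and the immunoproteasome subunit PSMB10, which lies in a stretch of chromosome 16 with most genes higher in WT10 cells, was at 971, 985 and 910 against 514, 515 and 574. The HLA class I partner B2M, at -0.04, did not pass. HLA genes have near-identical relatives, so their read counts are uncertain.

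Genes of the TGF-beta and BMP pathway differed in both directions. Of 46 genes tested, 18 were higher in WT10 cells and 13 higher in MUT3 cells, with 9 and 1 at 2-fold (median 0.06). INHBB, a subunit of activin B, was at 138, 166 and 122 normalized counts in WT10 cells against 25.0, 25.5 and 21.7 in MUT3 cells, and the log2 difference of ID1, a target of BMP signaling, was 2.10 (SE 0.08). BMP2 was the member that was 2-fold higher in MUT3 cells, at 43.8, 63.3 and 51.4 against 11.9, 7.72 and 19.9. The ligand TGFB1 and the receptor TGFBR2 did not pass the test, at log2 differences of 0.03 and 0.01. In the Wnt pathway 10 of 35 genes were higher in each clone (28.6%, median -0.03), close to the shares of all genes, and 9 were higher in WT10 cells and 14 in MUT3 cells (median -0.14) with length and GC trends removed. The ligand WNT5A was at 147, 126 and 140 in WT10 cells against 368, 322 and 343 in MUT3 cells, RNF43, which removes Wnt receptors from the membrane, was at 2.16, 0 and 1.99 against 17.5, 18.9 and 19.8, and the transcription factor TCF7 was higher in WT10 cells at 131, 128 and 135 against 75.0, 54.4 and 55.4. Beta-catenin (CTNNB1) and MYC did not pass, at -0.05 and -0.01.

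Among 62 receptor tyrosine kinases and their ligands, 29 were higher in WT10 cells and 14 higher in MUT3 cells (46.8% and 22.6%, median 0.22). With length and GC trends removed the counts were 24 and 20 (median 0.12). The ephrin ligand EFNA1 was at 30.3, 32.8 and 29.9 normalized counts in WT10 cells against 7.50, 7.77 and 5.93 in MUT3 cells, while AXL, a receptor made at high levels by mesenchymal cells, was between 17513 and 19849 in all 6 libraries and had a log2 difference of 0.01, which became -0.13 with length and GC trends removed (adjusted p 0.023 by limma with Benjamini-Hochberg). KDR, the main VEGF receptor and one of the markers of other cell types, was at 136, 145 and 142 against 325, 335 and 371. MST1R, the receptor of macrophage-stimulating protein, was named after its values were seen and was at 125, 118 and 103 against 2.50, 6.66 and 1.98. Of 16 integrins, 5 were higher in WT10 cells and 6 higher in MUT3 cells (31.2% and 37.5%), near the shares of all genes. The laminin receptor subunit ITGA3 was at 25204, 23725 and 20385 against 14060, 14346 and 15300, and ITGB8, which activates TGF-beta, was at 5.41, 12.5 and 6.98 against 33.8, 28.9 and 37.6. Of 30 cadherins and other adhesion molecules, 12 were higher in WT10 cells and 6 higher in MUT3 cells, and of 10 protocadherins 4 and 2. CDH12 had no read in MUT3 cells and 18.4, 22.2 and 23.9 in WT10 cells, and CD24 was at 67.1, 61.7 and 57.8 against 156, 152 and 137.

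Drug and stress genes differed in both directions. Of 17 transporters of drugs and organic anions, 10 were higher in WT10 cells and 3 higher in MUT3 cells (median 0.53). The cholesterol exporter ABCA1 was at 89.8, 115 and 113 normalized counts in WT10 cells against 20.01, 16.6 and 19.8 in MUT3 cells, and SLCO4A1 was higher in MUT3 cells at 664, 845 and 911 against 257, 264 and 225. Of 39 detoxification enzymes, 14 were higher in each clone. The aldo-keto reductase AKR1C1 was at 75.7, 85.8 and 103 against 3.75, 13.3 and 14.8 (its family has close copies, so the count is uncertain), the aryl hydrocarbon target CYP1A1 was at 627, 606 and 741 against 243, 246 and 251, and the aldehyde dehydrogenase ALDH3A1 was at 2.16, 2.89 and 4.99 against 33.8, 37.7 and 40.5. S100A4, a calcium-binding protein of motile cells, was at 149, 190 and 163 against 30.0, 44.4 and 51.4, and the metallothionein MT1F at 105, 101 and 88.8 against 280, 307 and 290. The transglutaminase TGM2, named after its values were seen, was at 7945, 8192 and 7402 in WT10 cells against 650, 636 and 643 in MUT3 cells, a log2 difference of 3.61 (SE 0.06, adjusted p 1.1e-18 by limma with Benjamini-Hochberg).

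Cell cycle genes were mostly close in level despite the difference in cyclin D2. Of 50 tested, 25 were higher in WT10 cells and 7 higher in MUT3 cells (median 0.13), and 1 in each direction was 2-fold. Beside CCND2, the transcription factor gene E2F2 was at 223, 185 and 197 normalized counts in WT10 cells against 93.8, 114 and 90.9 in MUT3 cells. The CDK inhibitor CDKN1A (p21) was at 2607, 2587 and 2964 against 1566, 1701 and 1815, and the retinoblastoma gene RB1, on a stretch of chromosome 13 higher in WT10 cells, was at 1603, 1702 and 1777 against 997, 1041 and 1144. Of 8 tumor driver genes of the line, MYC did not pass the test (log2 difference -0.01, adjusted p 0.818 by limma with Benjamini-Hochberg).

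Most ribosomal protein genes were higher in MUT3 cells, by small amounts. Of 74 tested, 59 were higher in MUT3 cells and 4 higher in WT10 cells, none by 2-fold, and their median log2 difference was -0.26. The largest were RPS13, at 6212, 5973 and 6428 normalized counts in WT10 cells against 10757, 10975 and 10685 in MUT3 cells, and RPL37A, at 8799, 8204 and 8579 against 13746, 15511 and 15063. Both of these lie in stretches of chromosomes 11 and 2 in which most genes were higher in MUT3 cells. The 65 members outside all such stretches had the same median of -0.26, with 54 higher in MUT3 cells and 1 higher in WT10 cells. The 4 members in stretches higher in WT10 cells had a median of 0.28, with RPLP1 at 17905, 15438 and 14862 against 10999, 11407 and 11833. With the dependence on GC content and transcript length taken out, 58 of the 74 were called higher in MUT3 cells and the median was -0.24. RPLP0, at -0.05, did not pass.

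Imprinted genes, of which 1 parental copy is silent, were called higher in MUT3 cells for 12 of 23 and higher in WT10 cells for 6 (median -0.30). MEST was at 33.5, 55.0 and 61.8 normalized counts in WT10 cells against 299, 357 and 347 in MUT3 cells. The transcription factor gene TP73 was higher in WT10 cells at 169, 176 and 188 against 86.3, 58.8 and 89.0. Of 14 HOX genes, 5 were higher in MUT3 cells and 1 higher in WT10 cells, none by 2-fold, and those higher in MUT3 cells included HOXD1 and HOXD4 of the cluster on 2q. HOXD4 was at 160, 174 and 191 in MUT3 cells against 119, 94.5 and 102 in WT10 cells. Of 39 neuronal and synaptic genes, 13 were higher in WT10 cells and 11 higher in MUT3 cells (median 0.03), and the axon guidance gene SEMA3F was at 84.4, 73.3 and 82.8 against 13.8, 11.1 and 28.7. Zinc finger genes with a ZNF name, looked at after the first values were seen, were called higher in MUT3 cells for 132 of 463 and higher in WT10 cells for 62 (median -0.10). The share higher in MUT3 cells, 28.5%, was near the 28.7% of all genes, and the share higher in WT10 cells was 13.4% against 25.6%. ZNF542, at 74.6, 60.8 and 88.8 in WT10 cells against 770, 620 and 585 in MUT3 cells, and ZNF717, at 47.6, 37.6 and 34.9 against 0, 1.11 and 1.98, were the largest in each direction.

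The genes that the study lists as raised or lowered with RBM47 were called in both directions at baseline. They were chosen in the study on these same libraries and are no independent evidence of a direction. Of 101 listed as raised, 29 were higher in WT10 cells and 31 higher in MUT3 cells (median 0.01), and of 92 listed as lowered 30 and 24 (median 0.06). These shares, 28.7% and 30.7% for the first list and 32.6% and 26.1% for the second, were near the 25.6% and 28.7% of all genes. SDR16C5, a retinol dehydrogenase of the first list, was at 53.0, 48.2 and 55.9 normalized counts in WT10 cells against 11.3, 12.2 and 12.8 in MUT3 cells, and GJA1 had the largest difference in the second. DKK1, a secreted Wnt inhibitor named after its values were seen, was at 7579, 8307 and 10223 in WT10 cells against 5945, 5698 and 5550 in MUT3 cells, a log2 difference of 0.59, and the Wnt feedback gene AXIN2 did not pass the test (log2 difference -0.12, adjusted p 0.6 by limma with Benjamini-Hochberg).

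**Figure D3:**
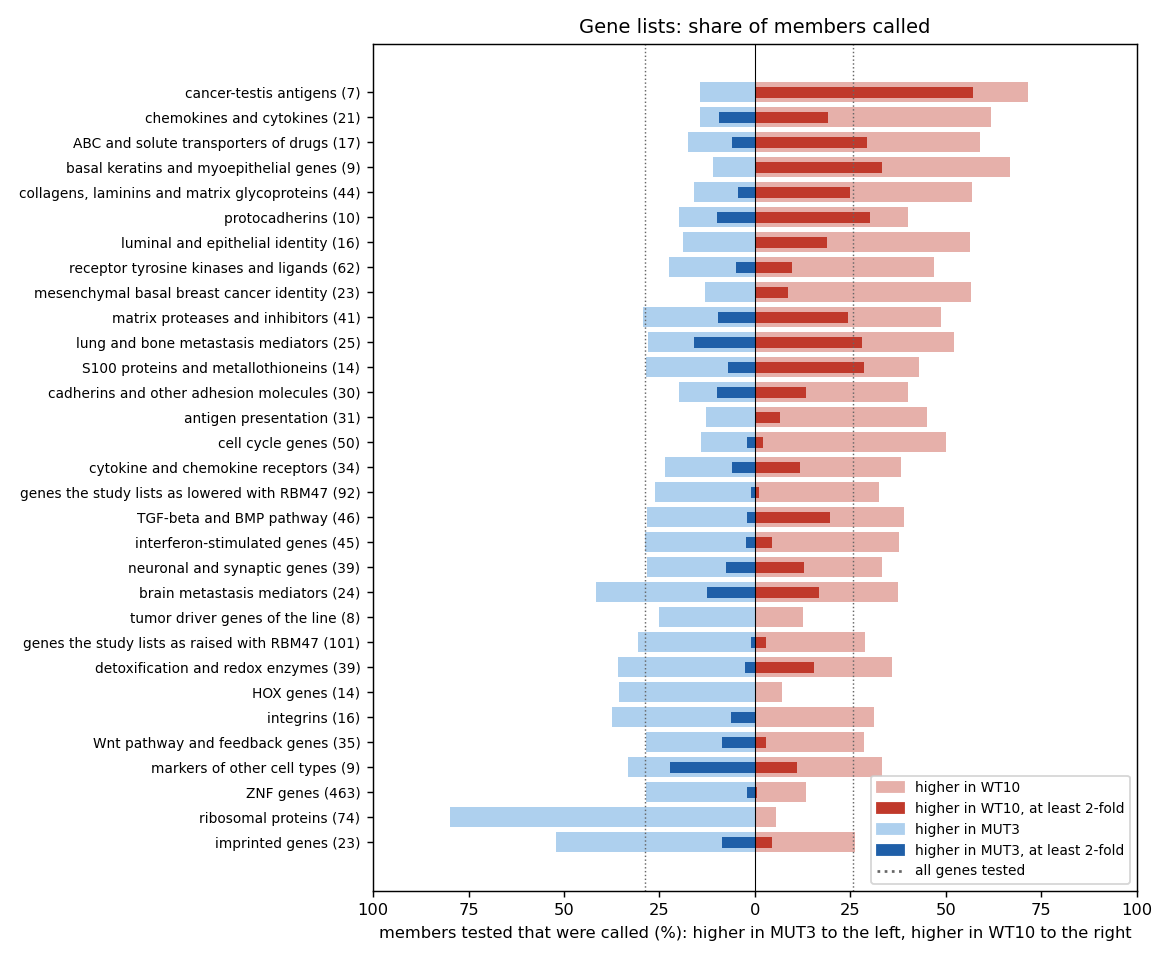
Share of the tested members of each gene list that were called, in percent, with members higher in MUT3 cells to the left and members higher in WT10 cells to the right, dark bars for differences of at least 2-fold and dotted lines for all genes tested (28.7% and 25.6%). Ribosomal proteins extend far to the left, with 59 of 74, and collagens and matrix glycoproteins extend to the right, with 25 of 44.

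Part of the differences followed the position of genes on chromosomes. For 41 chromosome arms with 12861 genes, the median log2 difference of the genes on an arm was computed, and for 33 arms it lay between -0.17 and 0.10. The arms 4p (-0.50), 2q (-0.44) and 11p (-0.39) were higher in MUT3 cells, and 18p (0.44), 16q (0.40), 13q (0.38), 15q (0.28) and 8p (0.28) were higher in WT10 cells. On 4p, 122 of 154 genes were called higher in MUT3 cells and 7 higher in WT10 cells. On 16q, 198 of 261 genes were called higher in WT10 cells and 22 higher in MUT3 cells. These 8 arms were picked by their values at 0, 1 and 2.5 ng/ml, and their medians kept their sign at 5 and 25 ng/ml. Some arms that were not picked also kept 1 sign at all 5 doses, such as 11q (-0.18 to -0.11) and 9q (0.05 to 0.13). On 4p the medians were -0.52, -0.50 and -0.50 at 0, 1 and 2.5 ng/ml and -0.53 and -0.52 at 5 and 25 ng/ml. On 16q they were 0.41, 0.43 and 0.38 and then 0.36 and 0.31. On 18p the median went from 0.51 at 2.5 ng/ml to 0.35 at 25 ng/ml, and on 15q from 0.30 to 0.20. DNA copy number was not measured, and its part in these differences was not tested.

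**Figure D4:**
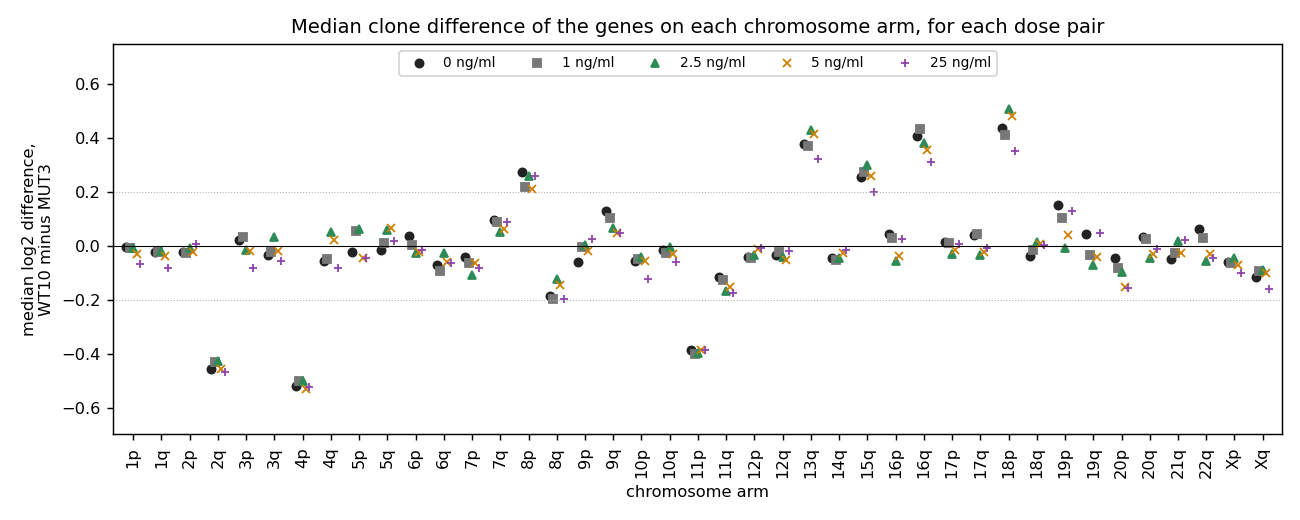
Median log2 difference, WT10 minus MUT3, of the tested genes on each of 41 chromosome arms, with 1 point for each dose at which both clones were sequenced. The 8 arms were picked because their median over the 3 low doses lies outside the band of 0.2 on either side of 0, from 4p at -0.50 to 18p at 0.44. They keep their sign at 5 and 25 ng/ml, as do some arms inside the band.

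Stretches of this kind were looked for on all arms with windows of 31 neighboring genes. A window was kept where its median log2 difference was at least 0.4 in size and of 1 sign in all 3 dose pairs. Windows of 1 sign that overlapped or adjoined were joined into a run, so the median of a whole run can be smaller, such as -0.34 on 6q. Some runs lie on arms that were not picked, such as 6q, 7q and 11q. The runs were picked by the same values that gave the calls. Their medians and the shares of their genes that were called are therefore a description, and higher values than elsewhere follow from the way they were picked. There were 21 runs with 1725 genes, and 1419 of those (82.3%) were called, against 5654 of 11136 (50.8%) on the rest of the arms. The median absolute log2 difference was 0.50 in the runs and 0.21 outside. Differences of at least 2-fold were found for 165 genes in the runs (9.57%) and 570 on the rest of the arms (5.12%), so most large differences lay outside the runs.

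The run with the largest median, 0.59, reached from SSBP1 to WDR60 on 7q (chr7:141438134-158749438, GRCh37) with 64 genes, 53 of them called higher in WT10 cells. It held PDIA4, which folds proteins in the endoplasmic reticulum, at 5407, 5345 and 5275 normalized counts in WT10 cells against 3264, 3368 and 3287 in MUT3 cells, and also PTPRN2. The longest run by genes was on 15q from VPS13C to WASH3P (chr15:62144588-102516469), with 218 genes and a median of 0.52. There the pyruvate kinase gene PKM2, which makes the last step of glycolysis, was at 79606, 77721 and 72382 against 56022, 56170 and 58029. On 16q, the amino acid transporter gene SLC7A5 was at 31858, 28133 and 27541 against 12742, 12840 and 13836, which was a larger difference than the median of its run (log2 differences 1.15 and 0.45). On 8p the run held LOXL2, which cross-links collagen, at 10219, 10115 and 8689 against 5499, 5719 and 6248, and BMP1, which trims collagen precursors.

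Of the runs higher in MUT3 cells, the one on chromosome 4 reached from ZNF595 to USP46 (chr4:53180-53525468, GRCh37), with 157 genes, 125 of them called higher in MUT3 cells, and a median of -0.50. The endogenous RBM47 gene lies inside this run, although its total level was higher in WT10 cells. WDR1, a gene of actin turnover in the run, was at 11916, 11260 and 11149 normalized counts in WT10 cells against 18107, 18370 and 18663 in MUT3 cells. On 2q, 3 runs held 153, 201 and 42 genes with medians of -0.51, -0.47 and -0.43. They included ACTR3, a subunit of the Arp2/3 complex, at 4322, 4443 and 4618 against 7466, 7944 and 8088, and CXCR4, whose log2 difference of -2.14 was well beyond the median of its run. On 11p, the lactate dehydrogenase gene LDHA was at 19999, 20787 and 21395 against 33326, 35309 and 34453, and the integrin-linked kinase gene ILK was at 5297, 4995 and 4678 against 8411, 8423 and 8717. PKM2 and LDHA, which encode consecutive enzymes at the end of glycolysis, thus lay in runs of opposite direction.

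The libraries at 5 and 25 ng/ml doxycycline had no part in the calls, and they came from the same 2 clones. Of the 787 genes called at 2-fold, 732 had the same direction at both doses, against 64.4% of all genes tested, and 720 (91.5%) had the same direction with no overlap between the clones, against 56.6% of all genes. The difference was at least 2-fold at both doses for 480 genes. The direction was the same for 774 genes at 5 ng/ml and for 739 at 25 ng/ml, and it was opposite at 1 or both doses for 55. MAGEA3 was at 397 and 337 in WT10 cells and at 0 in both MUT3 libraries, CD40 was at 828 and 847 against 12.9 and 9.43, and CCND2 was at 12.3 and 24.9 against 2238 and 2114. MMP1 kept its direction with a smaller distance, at 6377 and 12925 in WT10 cells against 36722 and 28105 in MUT3 cells. RBM47 reached 8134 and 19877 in WT10 cells and 949 and 22084 in MUT3 cells, and these reads include those of the transgene, wild type in WT10 cells and mutant in MUT3 cells. DKK1 and CXCL1, the second a neutrophil attractant named after its values were seen, rose with dose in WT10 cells. DKK1 kept its direction, at 15594 and 26822 in WT10 cells against 5899 and 5862 in MUT3 cells. CXCL1 went from 121, 146 and 181 at low doxycycline to 397 and 1798 in WT10 cells, while it was at 251, 357 and 297 and then 322 and 338 in MUT3 cells. CXCL1 was therefore called higher in MUT3 cells at low doxycycline (log2 difference -1.02) and was higher in WT10 cells at both higher doses. The point that lies farthest above the diagonal in the plot of these differences is BCAN, a brain proteoglycan named after its values were seen, which was at 35.0 and 135 in WT10 cells against 0.92 and 0 in MUT3 cells at 5 and 25 ng/ml.

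**Figure D5:**
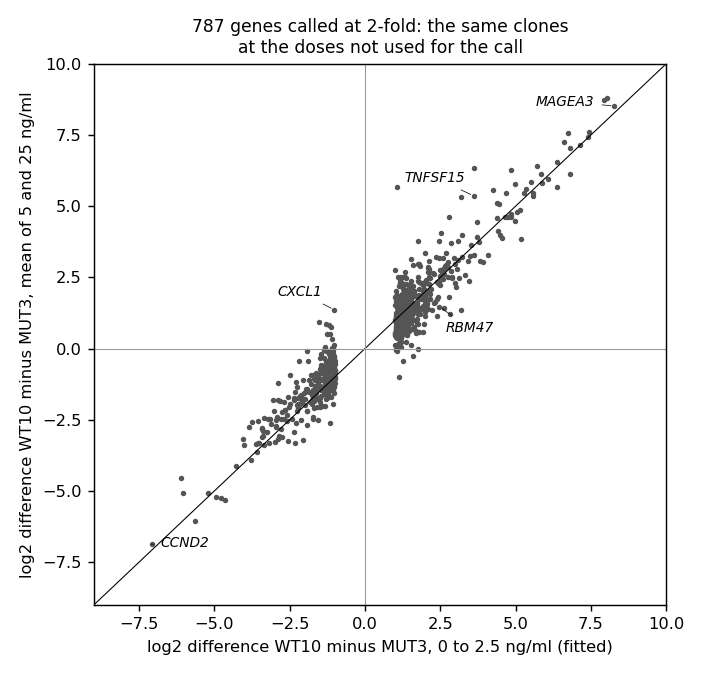
Log2 difference, WT10 minus MUT3, of the 787 genes called at 2-fold, fitted at 0 to 2.5 ng/ml doxycycline (horizontal axis) and as the mean of 5 and 25 ng/ml (vertical axis). Points lie along the diagonal for most genes, and 732 of 787 have the same direction at both of the higher doses.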

How the data were processed

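RNA-seq libraries (polyA selection, TruSeq, 75 base paired-end reads on a HiSeq) of WT10 and MUT3 cells were analysed at 0, 1 and 2.5 ng/ml doxycycline. Per the methods and the labels, STAR was the authors' aligner (hg19), HTSeq 0.5.4 at default settings counted reads on genes, and DESeq normalized them. The annotation is not given in the sources used here, and neither is the use of strand beyond these default settings. The deposited table (23368 genes, 5 tallies of HTSeq) holds a normalized signal: whole read counts that the authors scaled by 1 DESeq factor per library. All values (100%, tolerance 0.01) were whole multiples of what 1 read is worth, which gave back the reads. Reads in no gene were 56.6% to 58.8% of those on genes, in none or ambiguous, and were left out.

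WT10 was compared with MUT3, 3 libraries against 3, by limma 3.58.1 in R 4.3.3 with vooma precision weights on log2(normalized count + 1), without a term for dose, for genes with a mean of at least 10. Fold changes are on this scale, which understates the change of low genes. Adjusted p-values are Benjamini-Hochberg values over all genes tested, with a threshold of 0.05. The fits were tested on simulated data. edgeR 4.0.16 and DESeq2 1.42.0 on the recovered reads, other filters, pseudocounts and size factors, a block for dose, other sets of libraries and removal of length and GC trends were alternatives. Symbols were matched to GENCODE 44 on GRCh37 for 91.9% of the genes, for 1926 by an older symbol. Of 285 genes named by the rule, 139 overlap a gene on the other strand. Promoters came from RefSeq (GRCh38.p14).

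The rule named the 12 largest differences per direction (mean of at least 100 in the higher clone, no overlap), up to 10 genes on in 1 clone only, up to 4 called and 2 other members of each list, RBM47 and up to 4 genes of each run. The libraries compared, the members and the lists were chosen with earlier results of these data known. Intervals are exact (95%) and cover counting error only, as do floors of 3 reads over the libraries of a clone.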

Additional observations from a re-analysis of the deposited data

How the results depend on the processing

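The number of genes called was 7319 and moved to 7322 with edgeR, 6562 with DESeq2, 7308 with TMM factors, 6837 with the WT6 libraries added, 6743 over all 5 doses, 6990 at 0 and 1 ng/ml and 7001 with length and GC trends removed, and to 787 where at least 1 log2 unit was asked for. Leaving out 1 library gave 6197 to 7471 genes, 2965 to 3586 higher in WT10 cells and 3232 to 3960 higher in MUT3 cells. Without the filter on low values 790 genes were 2-fold higher in WT10 and 509 in MUT3, and a mean of at least 50, which leaves fewer genes, gave 253 and 157. The labels tie no libraries of a dose to a shared culture or day, deviations of same-dose libraries correlated at 0.171, 0.00998 and 0.000798 over 10722 genes, and the dose as replicate block called 7422 genes. Of 5354 values of 285 named genes under the alternatives, 5253 stayed in direction and on their side of the threshold, 54 lost the call, 44 gained it and 3 changed sign with length and GC trends removed. L1CAM (-0.21) and AXL (-0.13) were then called, DNAJB6 (-0.052) was no longer. The log2 difference of RBM47 was 2.07 over all 5 doses and 1.49 to 3.52 with 1 library left out.

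Medians of arms moved to -0.40 on 11p with a mean of at least 50 and in the pairs at 1 and 2.5 ng/ml alone, to 0.43 on 13q, 0.30 on 15q and 0.51 on 18p in the 2.5 ng/ml pair, to 0.43 on 16q and 0.22 on 8p in the 1 ng/ml pair, to -0.46 on 2q with a mean of at least 50 and to -0.52 on 4p in the 0 ng/ml pair. Counts of list members moved by over 1.5 times in some cases. With length and GC trends removed, the markers of other cell types had 1 member higher in WT10 cells and the drivers 2, the cytokines 1 at 2-fold in MUT3 cells, antigen presentation and ZNF genes 1 each at 2-fold in WT10 cells, and the markers of other cell types, Wnt, imprinted, cell cycle and study-lowered lists 0. With DESeq2, members higher in MUT3 cells were 5 of the receptors, 2 of antigen presentation, 3 of the integrins and 4 of the collagens, and markers of other cell types at 2-fold in WT10 cells 0. With DESeq2 or the replicate block 1 collagen was 2-fold higher in MUT3 cells, and with edgeR or the block 2 study-raised genes. List medians turned to -0.19 (brain metastasis) and -0.077 (neuronal genes) with length and GC trends removed, and the Wnt median moved to -0.14. The cause of these shifts was not tested. Depth limits genes near 3 reads, whose differences have wide intervals.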
